A study of Rattus norvegicus with 8 samples.

Results

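The 10 genes described here carry out and control the kidney's handling of phosphate, calcium and vitamin D. They are the sodium-phosphate cotransporters Slc34a1, Slc34a3, Slc20a1 and Slc20a2, the FGF23 co-receptor Kl, the vitamin D enzymes Cyp27b1 and Cyp24a1, the vitamin D receptor Vdr, and the distal calcium genes Trpv5 and Calb1. They were taken by symbol, through the RefSeq accession of each probe, from the 8 arrays of the study. All 10 genes were found, on 11 probes, among 20950 tested features, and every probe was well above background on all 8 arrays. The nephrectomized group was 4 samples of the right kidney, the one that remained after unilateral nephrectomy, of female F344/NSlc rats aged 10 weeks. The sham group was 4 samples of the right kidney of female rats of the same strain and age after a sham operation. No drug or transgene is named for either group. The study's design text gives 2 days after surgery, while the source names give 2 days for the nephrectomized and 1 day for the sham kidneys, so day and operation cannot be told apart if the source names are right. No label ties a sample to a named animal, and the p-values therefore reflect only how much these separately listed samples vary.

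The kidney sets the body's phosphate and calcium by reabsorbing what the glomerulus filters. In the proximal tubule the apical cotransporters NaPi-IIa, encoded by Slc34a1, and NaPi-IIc, encoded by Slc34a3, take up phosphate, and parathyroid hormone and FGF23 withdraw them from the membrane. The same segment makes active vitamin D with Cyp27b1 and breaks it down with Cyp24a1, while calcium is reclaimed under hormonal control further along, in the distal convoluted and connecting tubules, through the channel Trpv5, the binding protein Calb1 and pumps and exchangers of the basolateral membrane. The comparison asks whether these genes differ early in compensation, when 1 kidney does the work of both.

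Of 41012 probes, 59.5% to 66.1% stood well above background, depending on the array, and none was saturated. Levels are given as relative log2 signal, which is log2 of the scanner's processed signal minus log2 of the array's 75th percentile signal, and that percentile lay between 388 and 497 on the nephrectomized and between 460 and 643 on the sham arrays. The level of 1 probe cannot be set against that of another. Genes were compared with limma, nephrectomized minus sham, and p-values were adjusted by Benjamini-Hochberg across the 20950 features, with calls made under 0.05. Of these features 157 were called higher and 60 lower in nephrectomized kidneys. The arrays lay on 2 slides with 2 nephrectomized and 2 sham arrays each. Kidney markers were bright on every array, and all 10 proximal tubule, 6 thick ascending limb and 8 collecting duct markers were above background on all 8. Of tissues that could be carried along, the parathyroid and thyroid genes Pth and Gcm2, the adrenal genes Cyp11b1 and Cyp21a1 and the bone genes Bglap, Ibsp and Sost were above background on no array. In each of these lists 1 gene was above background on all 8 arrays, namely Tg at -0.28, Cyp17a1 at 0.27 and Dmp1 at 0.17 (log2 difference; limma adjusted p = 0.713, 0.196 and 0.680), and Cyp17a1 had an unadjusted p under 0.05. The summed level of the 4 measured adrenal genes was 0.203 to 0.228 in nephrectomized and 0.151 to 0.215 in sham kidneys, in multiples of the 75th percentile signal. That of the 4 parathyroid and thyroid genes was 0.0849 to 0.118 in nephrectomized and 0.0868 to 0.176 in sham kidneys, and that of the 4 bone genes 0.119 to 0.166 in nephrectomized and 0.0938 to 0.155 in sham kidneys. The part of such tissue in the results was not tested. Of the leukocyte markers, 9 of 9 tested had negative differences and 3 passed the threshold. Those were S100a8 at -1.69, S100a9 at -1.40 and Adgre1 at -0.51 (log2 difference), while Cd68, Csf1r and Lyz2 were at -0.11, -0.05 and -0.04. The summed level of the list was 84.8 to 97.6 in nephrectomized and 105 to 126 in sham kidneys, in the same unit. Most of this sum came from the brightest marker, Cd74, at -0.35 (limma adjusted p = 0.0898). Of that list Cd79b and Itgam were above background on no array.

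None of the 10 genes passed the threshold in limma, with 0 called higher and 0 lower where 0.749% and 0.286% of all features were (1.04% in either direction), and 1 of 10, Calb1, had an unadjusted p under 0.05, which 16% of all features had. Calb1 was also the single member whose nephrectomized and sham values did not overlap, and 11.1% of all features did not overlap. The median difference over the 10 genes was 0.05 on the log2 scale, against 0.01 over all features, with 7 positive and 3 negative. The differences ran from -0.53 for Cyp24a1 to 0.46 for Calb1. Among 50 tested companion genes of the same pathways, the calcium pump Atp2b2 rose in nephrectomized kidneys and was the one gene past the threshold.

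**Figure D1:**
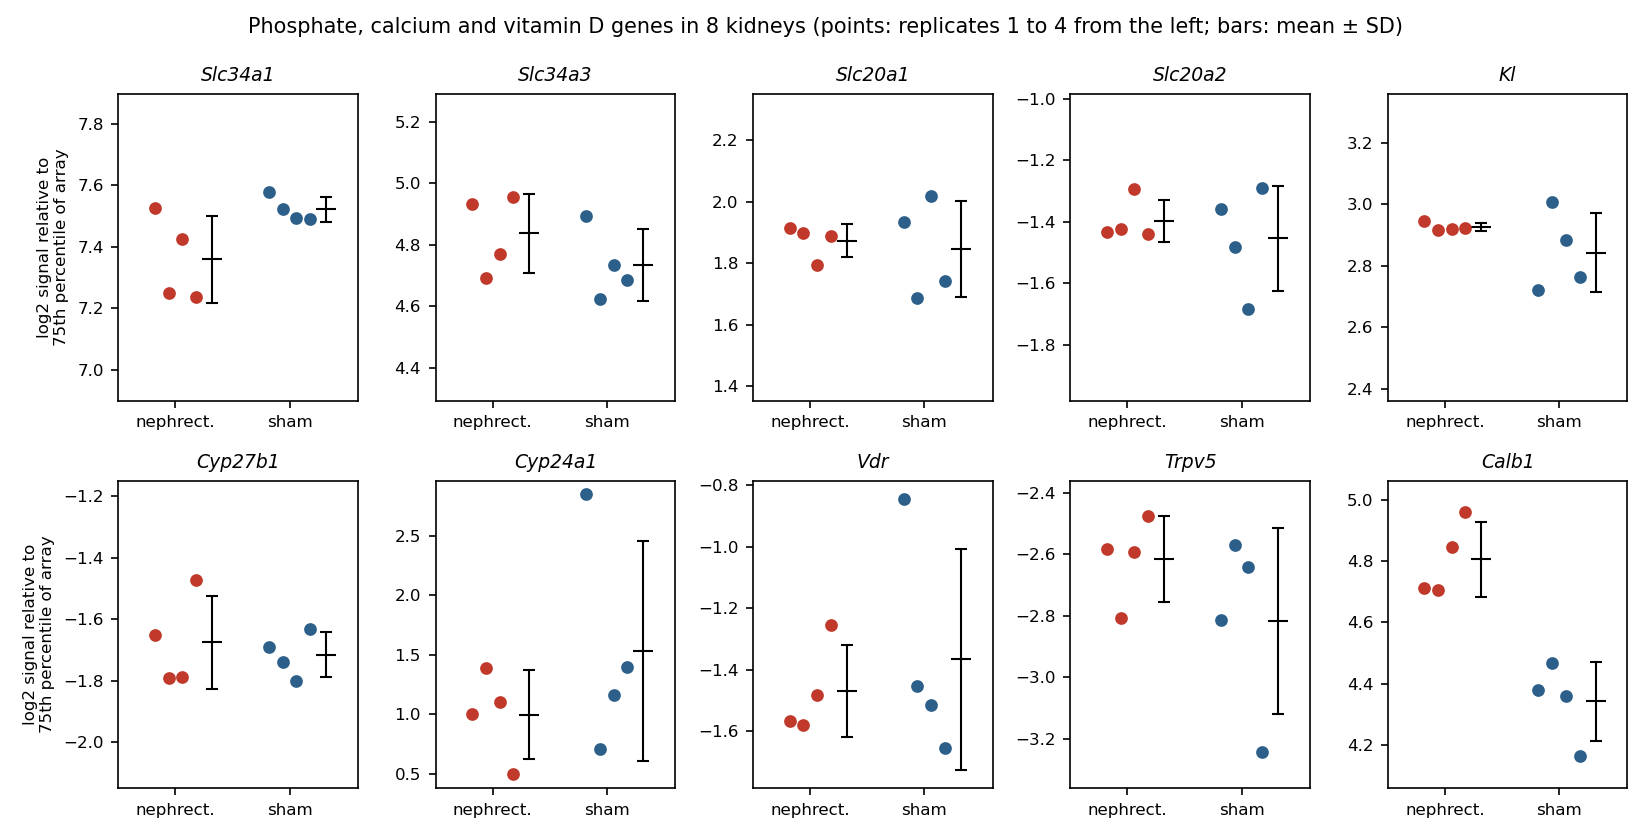
Relative log2 signal (log2 of signal over the array's 75th percentile) of the 10 genes, with nephrectomized kidneys at the left and sham kidneys at the right of each panel. Points are replicates 1 to 4 and bars are mean ± SD. Calb1 is the gene whose groups do not overlap, and the sham kidney of replicate 1 stands highest for Cyp24a1 and Vdr.

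The promoter windows of the renal phosphate cotransporter pair and of the pump that rose are shown because vitamin D is held to act on mineral transport through hexamer sites bound by its receptor. Windows run from 250 bases before to 50 bases after the gene's start, come from RefSeq on GRCr8, and were matched by symbol. Of the 10 genes 6 matched, which leaves Slc20a1, Slc20a2, Cyp24a1 and Calb1, and of the other genes followed here Atp2b2 matched and S100g did not. Slc34a1 is at chr17:9238934-9239233 on the minus strand, Slc34a3 at chr3:28447948-28448247 on the minus strand and Atp2b2 at chr4:148763604-148763903 on the minus strand, each written 5′ to 3′ along the gene. Capitals mark the hexamer AGGTCA and its variants on either strand, which were GGGTCA as the first variant, AGTTCA as the second and GGTTCA as the third, so that a site on the opposite strand shows as its reverse complement.
Slc34a1: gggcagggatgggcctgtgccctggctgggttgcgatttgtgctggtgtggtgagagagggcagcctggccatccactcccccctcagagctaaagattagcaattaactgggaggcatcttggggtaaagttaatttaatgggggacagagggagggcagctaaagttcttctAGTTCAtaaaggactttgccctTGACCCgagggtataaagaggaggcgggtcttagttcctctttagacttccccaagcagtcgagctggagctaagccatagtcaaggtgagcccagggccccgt
Slc34a3: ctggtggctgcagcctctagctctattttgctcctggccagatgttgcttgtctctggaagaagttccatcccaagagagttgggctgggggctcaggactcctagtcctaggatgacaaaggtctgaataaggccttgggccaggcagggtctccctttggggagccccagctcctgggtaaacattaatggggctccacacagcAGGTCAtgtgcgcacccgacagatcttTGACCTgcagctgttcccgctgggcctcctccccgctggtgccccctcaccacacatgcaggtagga
Atp2b2: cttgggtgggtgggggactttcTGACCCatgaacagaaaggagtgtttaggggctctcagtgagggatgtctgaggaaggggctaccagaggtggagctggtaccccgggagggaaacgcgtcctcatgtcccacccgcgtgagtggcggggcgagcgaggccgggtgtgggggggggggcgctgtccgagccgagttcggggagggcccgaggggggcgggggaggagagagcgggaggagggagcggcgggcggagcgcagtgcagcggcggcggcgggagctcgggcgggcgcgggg
Slc34a1 held AGTTCA at position -76 on the gene's strand and GGGTCA at -54 on the opposite strand, counted from the gene's start to the leftmost base of each. Slc34a3 held AGGTCA at -44 on its own strand and again at -17 on the opposite strand. In Atp2b2 the single match was GGGTCA at -228 on the opposite strand. Such a hexamer was present in 5 of the 6 matched members, Kl being without one, and in 44.4% of all 33469 windows. A full vitamin D receptor direct repeat with a 3-base spacer (DR3, with C or G allowed at the fifth base of each hexamer) was in none of the 6 and in 0.35% of all windows. These matches describe the letters in these windows only.

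Slc34a1, which carries most proximal phosphate reabsorption, was among the brightest probes, with 0.496% of tested features brighter. Its relative log2 signal was 7.53, 7.25, 7.43 and 7.24 in nephrectomized replicates 1 to 4, against 7.58, 7.52, 7.49 and 7.49 in sham replicates 1 to 4. Of the 4 nephrectomized kidneys 3 lay below every sham kidney and replicate 1 lay within the sham range, so the groups overlapped. The difference was -0.16 ± 0.08 (SE, log2), a fold of 0.893 with a 95% interval of 0.791 to 1.01, and did not pass (limma adjusted p = 0.347). It was -0.16 on each slide taken alone. Over the alternatives that kept all 8 arrays it ran from -0.24, with cyclic loess, to -0.15, and never passed the threshold. The 10 proximal tubule markers split into 5 positive and 5 negative, with a median of -0.01. They ran from -0.68 for Cyp2e1 (limma adjusted p = 0.0812) to 0.11 for Slc22a6. Cyp2e1 was the 1 marker of the 10 whose groups did not overlap, where 11.1% of all features did not. The summed level was 748 to 942 in nephrectomized and 750 to 931 in sham kidneys. Most of this sum came from the brightest markers, Slc13a3 at 0.04 and Slc5a2 at 0.0032. In bulk tissue fewer cells of a type and less RNA per cell cannot be told apart.

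Slc34a3, the second apical cotransporter of the same segment, had values of 4.93, 4.69, 4.77 and 4.96 in nephrectomized kidneys and 4.89, 4.62, 4.73 and 4.69 in sham kidneys. Nephrectomized replicates 1 and 4 lay above every sham kidney, and the other two lay within the sham range. The difference was 0.10 ± 0.09 (SE, log2; limma adjusted p = 0.603), with a fold interval of 0.937 to 1.23. Slc34a1 and Slc34a3 thus had differences of opposite sign, neither of them past the threshold.

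The PiT transporters Slc20a1 and Slc20a2, which supply phosphate to cells of most tissues, had smaller estimated differences, and no contrast between genes was tested. Slc20a1 was at 1.92, 1.90, 1.79 and 1.89 in nephrectomized and 1.94, 1.69, 2.02 and 1.74 in sham kidneys, so that all nephrectomized values lay inside the sham range. Its difference was 0.03 ± 0.08 (SE, log2; limma adjusted p = 0.909), and its second, dimmer probe also gave 0.03. Slc20a2 was at -1.43, -1.42, -1.29 and -1.44 in nephrectomized and -1.36, -1.48, -1.68 and -1.29 in sham kidneys, with a difference of 0.06 ± 0.09 (SE, log2; limma adjusted p = 0.812). The fold intervals were 0.893 to 1.16 for Slc20a1 and 0.901 to 1.20 for Slc20a2. On the separate slides both had differences of either sign, Slc20a1 being at 0.10 on slide 1 and -0.04 on slide 2, and Slc20a2 at -0.0071 and 0.12.

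Kl encodes klotho, which joins FGF receptors to form the FGF23 receptor of the distal tubule. Its values were 2.95, 2.92, 2.92 and 2.92 in nephrectomized kidneys, against 2.72, 3.01, 2.88 and 2.76 in sham kidneys. The 4 nephrectomized kidneys lay close together and within the sham range, with an SD of 0.0139 against 0.129 in sham kidneys (n = 4 each), a difference in spread that was not tested. Kl differed by 0.08 ± 0.07 (SE, log2; limma adjusted p = 0.612), a fold interval of 0.947 to 1.19, and by 0.07 and 0.10 on slides 1 and 2.

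The hormone receptors and scaffolds around these transporters did not pass either. Of 20 listed genes of phosphate transport and its control, 16 were tested, 8 were positive and 8 negative, and the median was -0.0047. In limma 0 passed in either direction, where 1.04% of all features did, and 0 had an unadjusted p under 0.05, where 16% did. Pth1r, the parathyroid hormone receptor, was at -0.11 ± 0.09, Fgfr1, a receptor that pairs with klotho, at -0.07 ± 0.06, and Nherf1, which anchors NaPi-IIa in the brush border, at 0.12 ± 0.09 (SE, log2 difference). Xpr1, the phosphate exporter, was at 0.30 ± 0.21 (SE) with nephrectomized replicate 1 at -0.38 above all 7 other arrays (SD 0.468 in nephrectomized and 0.161 in sham kidneys, n = 4 each), and at 0.07 ± 0.10 (SE) without that array. The smallest p-values of the list belonged to Ezr, which links the brush border to actin, at 0.13, Alpl, the tissue-nonspecific alkaline phosphatase, at -0.15, and Galnt3, which glycosylates FGF23, at 0.28, with limma adjusted p of 0.497, 0.498 and 0.526. Slc34a2, Fgf23, Phex and Pth were too dim to be tested.

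**Figure D2:**
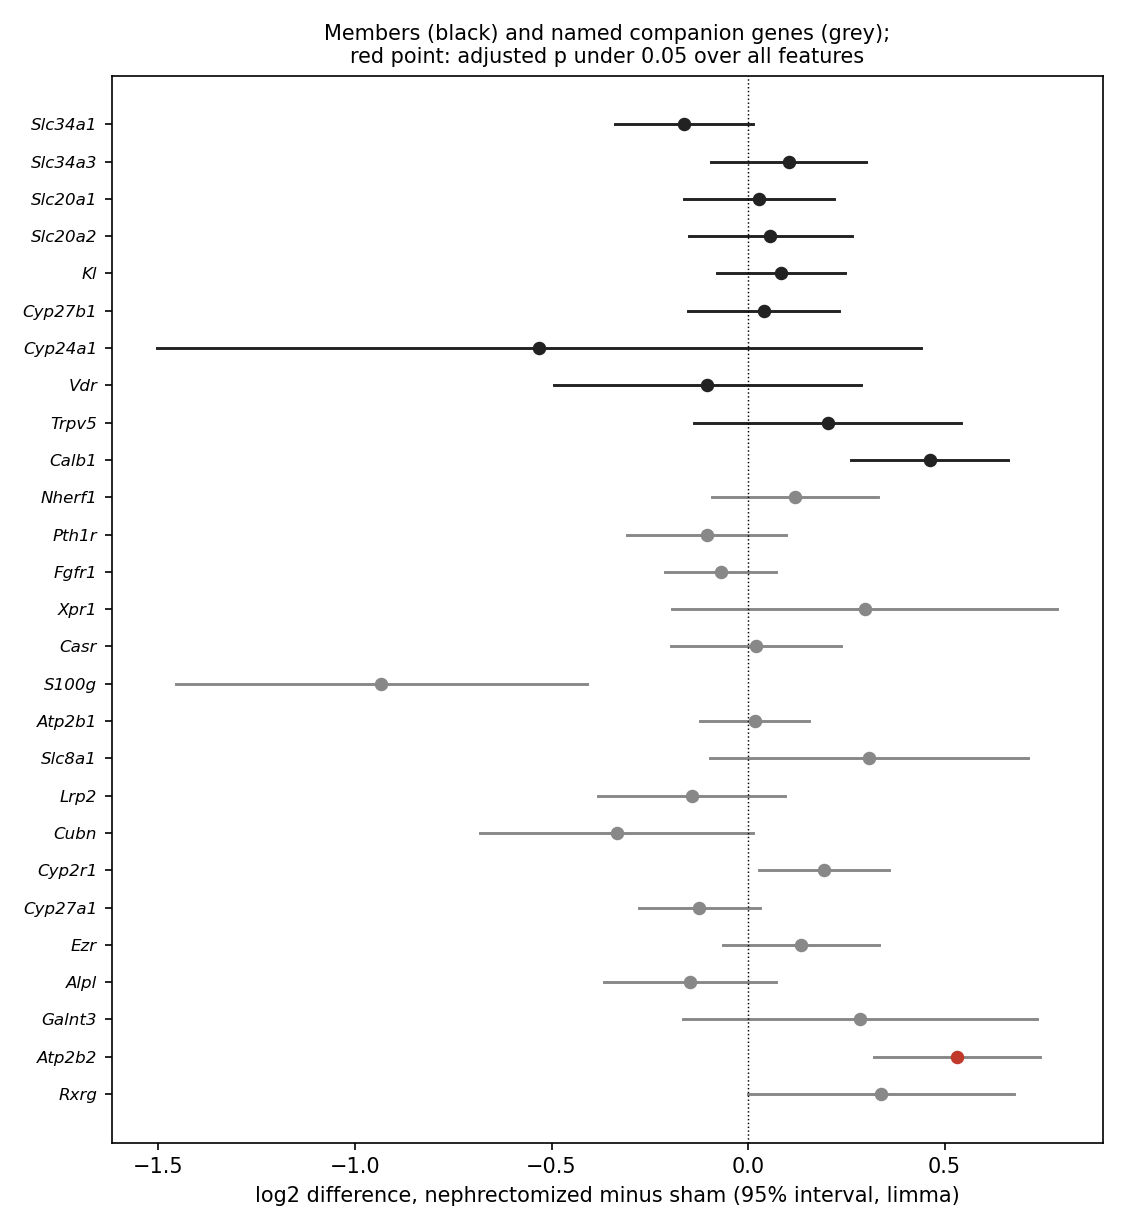
Log2 differences, nephrectomized minus sham, with 95% limma intervals for the 10 genes (black) and the named companion genes (grey), over 4 nephrectomized and 4 sham arrays. A red point marks an adjusted p under 0.05 over all features, which Atp2b2 alone has, and the interval of Cyp24a1 is the widest of the 10 members.

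Cyp27b1, the 1α-hydroxylase that makes active vitamin D, had values of -1.65, -1.79, -1.79 and -1.47 in nephrectomized kidneys and -1.69, -1.74, -1.80 and -1.63 in sham kidneys. Replicate 4 was the highest in each group, nephrectomized replicate 4 lay above every sham kidney, and the other 3 nephrectomized values lay within the sham range. The difference was 0.04 ± 0.08 (SE, log2; limma adjusted p = 0.864), and the fold interval was 0.90 to 1.17. Without nephrectomized replicate 4 it was -0.03 ± 0.07 (SE; adjusted p = 0.906).

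Cyp24a1, the 24-hydroxylase that inactivates vitamin D and a classical target of its receptor, varied most of the 10 genes. Its values were 1.00, 1.39, 1.11 and 0.50 in nephrectomized kidneys and 2.85, 0.71, 1.16 and 1.39 in sham kidneys. The sham kidney of replicate 1 stood above all others, sham replicate 4 lay just above the highest nephrectomized value, and the other two sham values lay within the nephrectomized range. On the scanner's own scale, before scaling between arrays, that kidney gave a processed signal of 4642, against 548 to 1197 in nephrectomized and 890 to 1477 in the other sham kidneys. The within-group SD of Cyp24a1 was 0.705, and 2.02% of all features had a larger one, where the median feature had 0.132. The difference of -0.53 ± 0.42 (SE, log2; limma adjusted p = 0.585) had a fold interval of 0.353 to 1.36. Without sham replicate 1 it was -0.09 ± 0.23 (SE; adjusted p = 0.892), so most of it came from 1 kidney.

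Vdr, the receptor for active vitamin D, was high in the same sham kidney. Its values were -1.57, -1.58, -1.48 and -1.26 in nephrectomized kidneys and -0.84, -1.45, -1.52 and -1.66 in sham kidneys. Sham replicate 1 lay above all 4 nephrectomized values, and the other 3 sham kidneys spanned the lower part of that range and beyond. The difference was -0.10 ± 0.17 (SE, log2; limma adjusted p = 0.817) over all arrays and 0.07 ± 0.10 (SE; adjusted p = 0.790) without sham replicate 1. It was -0.42 on slide 1, which holds that kidney, and 0.22 on slide 2. Macrophages and lymphocytes also carry Vdr and Cyp27b1, and the part of the lower leukocyte markers in either value was not tested.

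Of 21 listed genes of vitamin D metabolism, uptake and receptor partners, 17 were tested, 5 positive and 12 negative, with a median of -0.08. In limma 0 passed the threshold, where 1.04% of all features did, and 1 had an unadjusted p under 0.05, where 16% did. That gene was Cyp2r1, the vitamin D 25-hydroxylase, at -0.69, -0.83, -0.76 and -0.59 in nephrectomized and -1.03, -0.90, -0.85 and -0.86 in sham kidneys. The groups did not overlap, which held for 11.1% of all features, and the difference was 0.19 ± 0.07 (SE, log2; limma adjusted p = 0.248). Before scaling between arrays the processed signals of Cyp2r1 overlapped between the groups. Cyp27a1, another 25-hydroxylase, was at -0.12 ± 0.07 (SE, adjusted p = 0.411). The endocytic receptors megalin and cubilin bring filtered vitamin D and its binding protein into proximal cells, and their genes Lrp2 and Cubn were at -0.14 ± 0.10 and -0.33 ± 0.15 (SE, log2; limma adjusted p = 0.546 and 0.328). Every nephrectomized kidney was below the sham mean for both genes, but the groups overlapped. Rxrg, a partner of the receptor, was at 0.34 ± 0.15 (SE, adjusted p = 0.313). Rxrb, also a partner, had the opposite sign, at -0.11 ± 0.06 (SE, adjusted p = 0.399), with all 4 nephrectomized values below every sham value. With Cyp2r1 that made 2 of 17 tested genes whose groups did not overlap. No probe was named for Rxra, another partner, or for Ncoa1 and Ncoa3, and Gc was too dim to be tested.

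**Figure D3:**
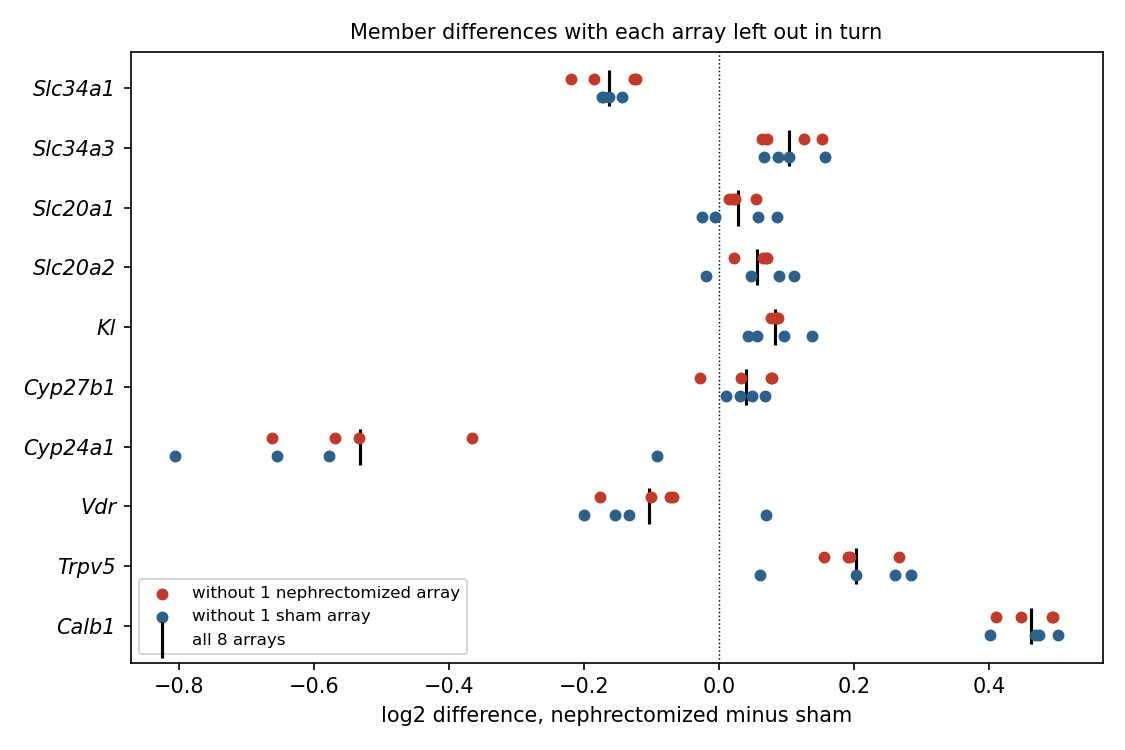
Log2 differences, nephrectomized minus sham, of the 10 genes over all 8 arrays (black bars) and with each array left out (red points without 1 nephrectomized array, blue points without 1 sham array). Without sham replicate 1 Cyp24a1 is at -0.09 in place of -0.53 and Vdr at 0.07 in place of -0.10, while Calb1 stays between 0.40 and 0.50.

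Trpv5, the apical calcium channel of the distal tubule, was dim, with 77.8% of tested features brighter. Its values were -2.58, -2.81, -2.59 and -2.48 in nephrectomized kidneys and -2.81, -2.57, -2.64 and -3.24 in sham kidneys. Sham replicate 4 was the lowest of all 8, sham replicate 1 lay just under nephrectomized replicate 2, and the other two sham kidneys lay among the nephrectomized ones. The difference was 0.20 ± 0.15 (SE, log2; limma adjusted p = 0.549), or 0.06 without sham replicate 4, and it was -0.0037 on slide 1 and 0.41 on slide 2.

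Calb1 encodes calbindin-D28k, which binds calcium on its way across distal tubule cells. Its values were 4.71, 4.70, 4.85 and 4.96 in nephrectomized kidneys and 4.38, 4.47, 4.36 and 4.16 in sham kidneys, so every nephrectomized kidney lay above every sham kidney. The means were 4.81 ± 0.12 and 4.34 ± 0.13 (SD, n = 4 each). The difference of 0.46 ± 0.09 (SE, log2), a 1.38-fold level with an interval of 1.20 to 1.58, missed the threshold narrowly (limma adjusted p = 0.0519), and 1.22% of features had a smaller p. It was 0.28 on slide 1 and 0.64 on slide 2, and the adjusted p was 0.0774 with slide as a block. Under 5 alternative settings, given in the closing section, it passed. The separation was seen on scaled values. Before scaling between arrays the processed signals overlapped, at 11920 to 13970 in nephrectomized and 9457 to 13410 in sham kidneys. Over the alternatives that kept all 8 arrays the difference was 0.42 to 0.50, and what scaling contributed was not tested.

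Atp2b2 encodes a plasma membrane calcium pump, best known from hair cells and neurons. Its brighter probe read -0.55, -0.56, -0.74 and -0.60 in nephrectomized kidneys and -1.01, -1.35, -1.0 and -1.21 in sham kidneys. The groups did not overlap, and Atp2b2 rose by 0.53 ± 0.09 (SE, log2; limma adjusted p = 0.0438), or 1.45-fold. The second probe had values of -1.92, -1.66, -1.98 and -1.78 in nephrectomized and -2.34, -2.46, -2.37 and -2.27 in sham kidneys, also without overlap, and its difference was 0.53. Before scaling between arrays the processed signals of both probes overlapped between the groups, as those of Calb1 did. The call was lost with slide as a block (adjusted p = 0.0691) and when any 1 of the 8 arrays was left out (adjusted p from 0.0726 to 0.121), while the difference stayed between 0.46 and 0.58. Within slides 1 and 2, with 2 arrays a group, it was 0.63 and 0.44.

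S100g encodes calbindin-D9k, the smaller vitamin D-dependent calcium-binding protein. Its values were 1.80, 1.11, 1.55 and 1.08 in nephrectomized kidneys and 2.67, 1.76, 2.37 and 2.47 in sham kidneys. Of the nephrectomized kidneys 3 lay below every sham kidney, and replicate 1 lay just above sham replicate 2. The difference was -0.93 ± 0.23 (SE, log2), a fold of 0.524, and did not pass (limma adjusted p = 0.0953). Calb1 and S100g, both calcium-binding proteins of the distal tubule in rodents, therefore stood on opposite sides of zero, and a test of that contrast was not made.

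**Figure D4:**
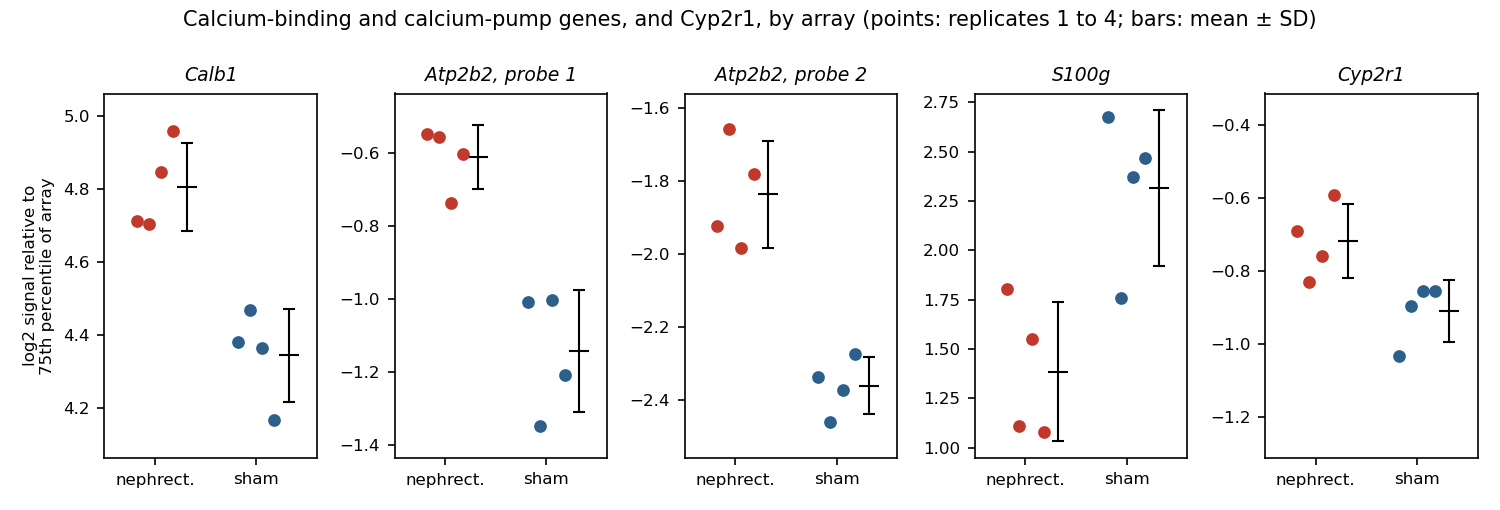
Relative log2 signal (log2 of signal over the array's 75th percentile) by array for Calb1, both probes of Atp2b2, S100g and Cyp2r1, nephrectomized kidneys at the left and sham kidneys at the right. Points are replicates 1 to 4 and bars are mean ± SD. All panels except S100g show groups that do not overlap.

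Of 20 listed genes of calcium and magnesium transport and sensing, 17 were tested, with 11 positive and 6 negative and a median of 0.02. Atp2b2 was the 1 gene called higher, and 0 were called lower, where 0.749% and 0.286% of all features were. At an unadjusted limma p under 0.05, 2 were higher and 1 lower, where 16% of all features had such a p in either direction. The groups did not overlap for 2 of the 17, where 11.1% of all features did not. The main basolateral routes of distal calcium were at 0.02 ± 0.06 for the pump gene Atp2b1 and 0.31 ± 0.18 for the sodium-calcium exchanger gene Slc8a1 (SE, limma adjusted p = 0.925 and 0.439). The 4 probes of Slc8a1 gave differences from 0.06 to 0.47, and the 2 of Atp2b1 gave 0.02 and -0.06. Casr, the calcium-sensing receptor, was at 0.02 ± 0.09 (SE, adjusted p = 0.945), a value whose sign depends on the scaling. Trpv6 and Atp2b4 were too dim to be tested, and no probe was named for Trpm6.

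Apart from Calb1 and Kl, 3 of the listed distal convoluted and connecting tubule markers were measured, namely Slc12a3 at -0.05, Klk1 at -0.06 and Wnk1 at -0.12, none past the threshold. Their summed level, nearly all of it from the brighter Klk1 and Wnk1, was 266 to 280 in nephrectomized and 254 to 307 in sham kidneys.

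**Figure D5:**
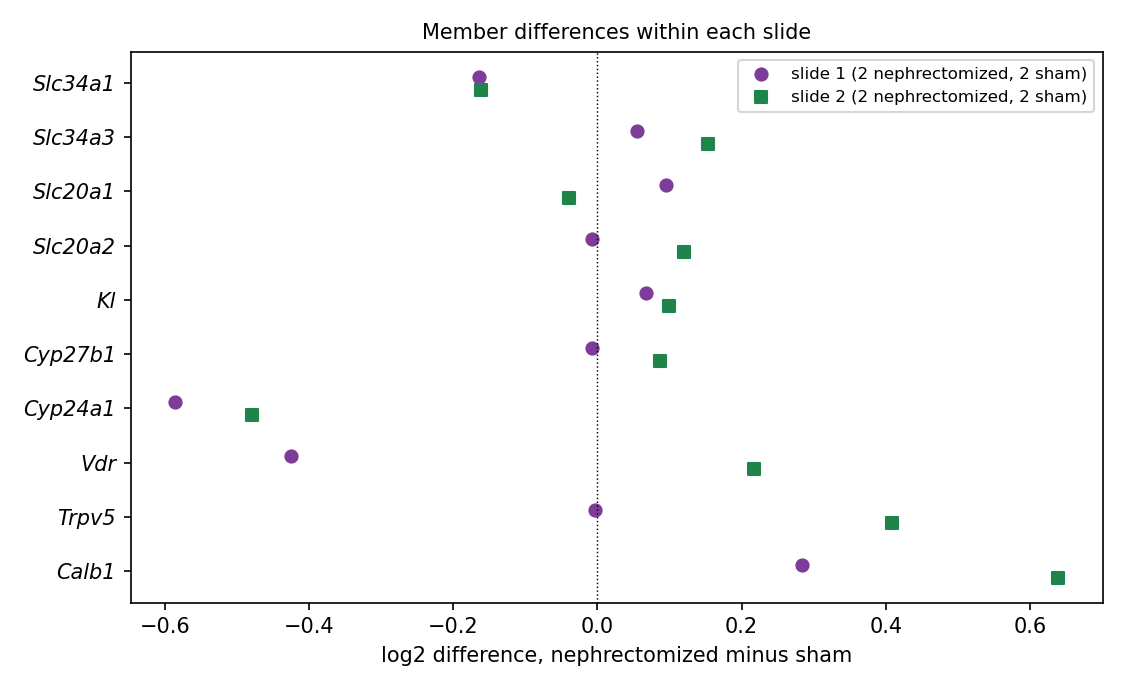
Log2 differences, nephrectomized minus sham, of the 10 genes within slide 1 (circles) and slide 2 (squares), each with 2 nephrectomized and 2 sham arrays. Calb1 is positive and Slc34a1 and Cyp24a1 are negative on both slides, while Vdr is at -0.42 on slide 1 and 0.22 on slide 2.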

How the data were processed

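RNA was extracted with the RNeasy Mini Kit and labelled with Cy3 by the Low Input Quick Amp kit, per the labels' protocols, and hybridised to 1-colour Agilent rat arrays, 1 sample each. The scanner output deposited by the authors came from Agilent Feature Extraction 10.5.1.1, and its processed signal is an intensity, background-subtracted and detrended within the array, per the file headers. Raw median intensities and flags for spots above background, saturated or outlying were in the same files. The deposited series table holds log2 values with no description. Against the scanner values they had correlations of 1.00 with slopes of 1.00 once the scanner values had been scaled to the 75th percentile and each probe's median over 8 arrays subtracted, and ran the same way. Medians of these columns were 0.00116, 0.0122, -0.000822 and 0.0154 for nephrectomized replicates 1 to 4 and -0.0145, -0.00235, -0.000988 and -0.00954 for sham replicates 1 to 4.

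From 45018 spots per array, 1639 control spots and outlier spots were left out and spots of 1 probe averaged, giving 41012 probes. Processed signals were put on the log2 scale and shifted to each array's 75th percentile. Probes well above background on at least 4 of 8 arrays were tested (25250), named through RefSeq accessions of GRCr8 (18713 of all probes), and each gene was represented by its brightest probe. Probes without a symbol were grouped by accession, so 10249 of the 20950 features carried a gene symbol, and shares over all features include the others. The arrays' headers name another assembly, so coordinates are given for RefSeq promoter windows alone. limma 3.58.1 in R 4.3.3 compared the groups with no covariate (6 residual and 2.37 prior degrees of freedom). The number of arrays limits the precision. On both slides sham arrays held positions 1 and 2 and nephrectomized arrays positions 3 and 4, so position and group cannot be told apart.

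The members and gene lists were chosen with earlier results of these data known. Named are all members, 12 measured companion genes fixed by name, and in each companion list the genes past the threshold, filled to 3 by smallest p. Rxrb is given outside this rule, is in no figure and is not counted among the named genes. Results of some listed genes are not reported here. Alternatives covered background correction, normalization, the filter on dim probes, the probe rule, the variance model, array weights, replicate and slide blocks, each slide alone, the series table as deposited and omission of each array in turn. The steps were tested on simulated data, in which 45.5% of features changed by 0.5 (log2) were called, against 73.1% at 1 and 92.5% at 2. The normexp alternative used the median spot signal with an offset of 50.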

Additional observations from a re-analysis of the deposited data

Results flagged for a closer look

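Among the 56 groups of 4 arrays formed by the 28 named genes, 3 had 1 array set apart from the others by a gap to the nearest value that passed Dixon's limit for 4 samples at the 95% level, and chance gives about 1 in 20. Slc20a2, the PiT-2 phosphate transporter, stood at -1.29 in nephrectomized replicate 3, with the nearest nephrectomized value at -1.42. Casr, the calcium-sensing receptor, stood at 2.88 in nephrectomized replicate 2, with the nearest at 2.67. Cubn, the cubilin gene, stood at 6.02 in nephrectomized replicate 1, with the nearest at 5.63. All are relative log2 signals.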

How the results depend on the processing

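Over 23 alternatives the median difference of the 10 genes stayed between -0.0054 and 0.11 and that of the companion genes between -0.04 and 0.01, while calls were less stable. Against 217 features called, 394 were called among probes above background on all 8 arrays, 530 with a trended robust variance model, 504 with array weights, 100 with slide as a block, 20 without a filter and 0 within slide 1 or slide 2 alone, and 22 to 197 with 1 array left out (22 without sham replicate 2). Among members 1 gene, Calb1, passed with normexp background correction (adjusted p = 0.0347), median centring (0.0496), probes above background on all 8 arrays (0.0386), the trended robust model (0.0230) and array weights (0.0426), and 0 passed with any array left out (Calb1 adjusted p from 0.0735 to 0.130). Companion genes called numbered 2 with normexp (Atp2b2 and S100g, the second at -0.90 with adjusted p = 0.0457), and 0 without a filter (Atp2b2 adjusted p = 0.137), with slide as a block, within slide 1 or 2, and with any array left out. Atp2b2 passed in 10 of the 23 alternatives, and its difference stayed positive in all. The causes of these changes were not tested.

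Same-numbered kidneys correlated at 0.14, 0.01, -0.06 and -0.21 in their deviations from the group means, and not every kidney correlated best with its own number, so the numbers were not read as pairs. With the replicate block 10 features, 0 members and 0 companion genes passed, Calb1 having an adjusted p of 0.176 and Atp2b2 of 0.144.

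Genes near zero changed sign. Casr was at -0.023 with normexp, -0.0086 with quantile normalization, -0.00033 with cyclic loess and -0.15 within slide 2. Atp2b1 was at -0.023 as a mean of its probes. Within slide 1 Slc20a2 was at -0.0071, Cyp27b1 at -0.0078, Trpv5 at -0.0037 and Atp2b1 at -0.045, and within slide 2 Slc20a1 was at -0.040 and Vdr at 0.22. With 1 array left out, the differences ran from -0.050 to 0.079 for Casr, -0.028 to 0.078 for Cyp27b1, -0.0080 to 0.057 for Atp2b1, -0.20 to 0.070 for Vdr, -0.025 to 0.086 for Slc20a1 and -0.020 to 0.11 for Slc20a2. Another scaling moved the median of all features by at most 0.04, and the dimmest member, Trpv5, was above background on every array.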

Other observations

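All 6 markers of the thick ascending limb, where magnesium and calcium pass between cells, had positive differences, from 0.03 to 0.22 on the log2 scale with a median of 0.12. None passed the threshold in limma, none had an unadjusted p under 0.05, and their summed level was 526 to 797 in nephrectomized and 619 to 677 in sham kidneys, in multiples of the array's 75th percentile signal. Most of this sum came from the brightest marker, Umod, at 0.03 (limma adjusted p = 0.940).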
